A study of Homo sapiens with 12 samples.

Results

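The 6 retinoid-metabolizing enzymes CYP26A1, CYP26B1, DHRS3, DHRS9, RDH11 and RDH14, which interconvert or break down retinoids, were followed in HL-60 cells exposed to all-trans retinoic acid (ATRA). They were taken by symbol from the gene tables, where each of the 6 stood among 26364 genes. HL-60 is an established human promyelocytic leukaemia line that matures towards neutrophils in ATRA. RNA-seq libraries were made from untreated cells (0 h) and from cells kept in 1 μM ATRA for 4 h, for 2 d or for 4 d. Each time has 3 libraries, and no group went without ATRA for the same time. The labels number the libraries of a time without saying whether they came from separate cultures, and the p-values therefore rest on a spread among libraries that may be technical.

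Retinoic acid is made from retinol in a pair of steps. Short-chain dehydrogenases and reductases of the RDH and DHRS families run the first, between retinol and retinaldehyde, and ALDH1A enzymes run the second, which makes the acid. The CYP26 P450s oxidize retinoic acid to more polar products and so clear it. CYP26A1 and DHRS3 are known as transcriptional targets of retinoic acid itself, the first through repeated hexamer elements bound by its nuclear receptors. ATRA enters these cultures as the finished acid, downstream of the enzymes that make it.

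A window before a start of CYP26A1 and of DHRS3 is shown, the enzymes with no read in any library before ATRA and at least 433 reads in each library at 4 d. Both are from RefSeq on GRCh38.p14, 250 bases each, 5′ to 3′ on the gene's own strand. The CYP26A1 window is chr10:93073643-93073892 on the plus strand, before the second of 2 annotated starts. The DHRS3 window is chr1:12618211-12618460 on the minus strand, before the first of 3 annotated starts. Capitals mark a DR5, a direct repeat of 2 hexamers with 5 bases between them. The CYP26A1 window was picked because it holds a DR5, and the window before its other start held 0. For DHRS3 the window before the first start was picked, which held 0 of the hexamers searched for below.
CYP26A1: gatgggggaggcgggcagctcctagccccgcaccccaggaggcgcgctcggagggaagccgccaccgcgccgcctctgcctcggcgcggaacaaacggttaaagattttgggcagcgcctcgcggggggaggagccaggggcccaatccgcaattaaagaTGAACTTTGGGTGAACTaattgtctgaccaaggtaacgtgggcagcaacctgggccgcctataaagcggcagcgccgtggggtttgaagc
DHRS3: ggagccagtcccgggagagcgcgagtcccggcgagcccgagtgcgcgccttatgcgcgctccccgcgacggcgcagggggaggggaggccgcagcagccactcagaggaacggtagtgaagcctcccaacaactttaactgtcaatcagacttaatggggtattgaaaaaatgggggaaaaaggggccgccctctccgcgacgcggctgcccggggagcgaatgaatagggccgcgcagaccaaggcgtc
The repeat lay 74 to 90 bases before the CYP26A1 start and read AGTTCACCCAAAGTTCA on the opposite strand. Windows of 250 bases before to 50 bases after each start were searched on both strands for the hexamer AGGTCA, for its variant AGTTCA that the CYP26A1 window holds, for GGGTCA as another variant and for GGTTCA as the last of them, alone and as direct repeats with 1, 2 or 5 bases between them. A DR5 of these hexamers stood in 31 of 35116 windows (0.0883%), in 29 of 27305 genes (0.106%), and a repeat with 1 or 2 bases between them in 0.131% and 0.0399% of windows. The hexamers include the one that makes up the CYP26A1 repeat, and its window was picked for that repeat. These shares are therefore background and do not test it. No other window of the 6 genes held any of these repeats. A single hexamer, which 38.6% of all windows hold, stood once in each of the other DHRS3 windows, and more than once in a window of DHRS9 and of RDH14; the hexamers inside a repeat count as single ones too. These matches describe letters and not binding.

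The libraries held 7866757 to 13658177 reads assigned to genes. Reads fell in 15198 to 15798 genes in 11 libraries and in 22265 genes in 4 h replicate 1. In that library 28.15% of reads fell in no gene, the highest share of the 12. Promyelocyte markers fitted the label: MPO averaged 27970 ± 7002 CPM (read counts scaled to library size) at 0 h (SD, n = 3). CDKN2A, known to be deleted in the line, went against the label with means of 25.0 to 37.2 CPM over the 4 times. ITGAM, the CD11b integrin of maturing myeloid cells, averaged 394.3 ± 4.56 CPM at 4 d and 53.7 ± 5.76 CPM at 0 h. The 10 markers of other cell types summed to 32.7 to 39.3 CPM per library at 0 h, 12.2 to 17.6 CPM at 4 h, 32.6 to 34.5 CPM at 2 d and 98.7 to 103 CPM at 4 d. MS4A1 and HBB, of B cells and red cells, had no read at 4 d, and CSF1R, of monocytes, made up 63.9 ± 3.54 CPM of the 4 d sum, against 1.93 ± 0.103 CPM at 0 h. CD14, also of monocytes, went the other way, with 15.01 ± 1.58 CPM at 4 d and 22.5 ± 2.17 CPM at 0 h, and was lowest at 4 h with 3.12 ± 0.78 CPM. COL1A1, a collagen of fibroblasts, averaged 8.24 ± 3.78 CPM at 4 d and 0.858 ± 0.83 CPM at 0 h, and CD3E, of T cells, 6.17 ± 1.44 CPM at 4 d and 0.562 ± 0.11 CPM at 0 h. The part of these markers in the results below was not tested. In bulk RNA, more cells expressing a gene and more transcript per cell cannot be told apart.

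Of the 6 enzymes, CYP26A1 and DHRS3 had no read at 0 h and were read in every treated library, DHRS9 passed edgeR's test from 2 d on, and RDH11 and RDH14 at no time. CYP26B1 had too few reads to be tested. By edgeR's quasi-likelihood test on the counts, with 1 mean per time and Benjamini-Hochberg adjustment over 12671 genes, 2 of the 5 tested enzymes were higher at 4 h than at 0 h, where 2.00% of all genes tested were higher and 4.23% lower at an adjusted p under 0.05. At 2 d against 0 h 3 of 5 were higher, beside 16.9% of all genes higher and 18.7% lower. At 4 d against 0 h the same count, 3 of 5, was higher, beside 28.1% of all genes higher and 29.7% lower. Between treated times, 3 of 5 were higher at 2 d than at 4 h (16.5% of all genes higher, 18.0% lower) and 2 of 5 at 4 d than at 2 d (13.1% higher, 13.5% lower). None of the 5 was called lower in any of these comparisons (0 by edgeR, DESeq2 or limma-voom, and by edgeR 0 with an unadjusted p under 0.05). Over all 4 times together 3 of 5 differed, as did 63.2% of all genes tested. CYP26A1 and DHRS3 passed the low-count filter through treated libraries alone, so their rise at 2 d and 4 d over 0 h is given as levels and folds over a floor. They were 2 of the 3 enzymes counted at 2 d and at 4 d against 0 h and over all 4 times. Those counts are therefore not to be read against the shares of all genes. DHRS9 alone was counted there without this limit. At 2 d against 4 h the limit also applied to CYP26A1, for which 0 of the 3 libraries at 4 h reached the filter's cutoff of 0.917 CPM. The genes were also picked with earlier results of the same libraries known, so the counts describe them and are not independent evidence.

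**Figure D1:**
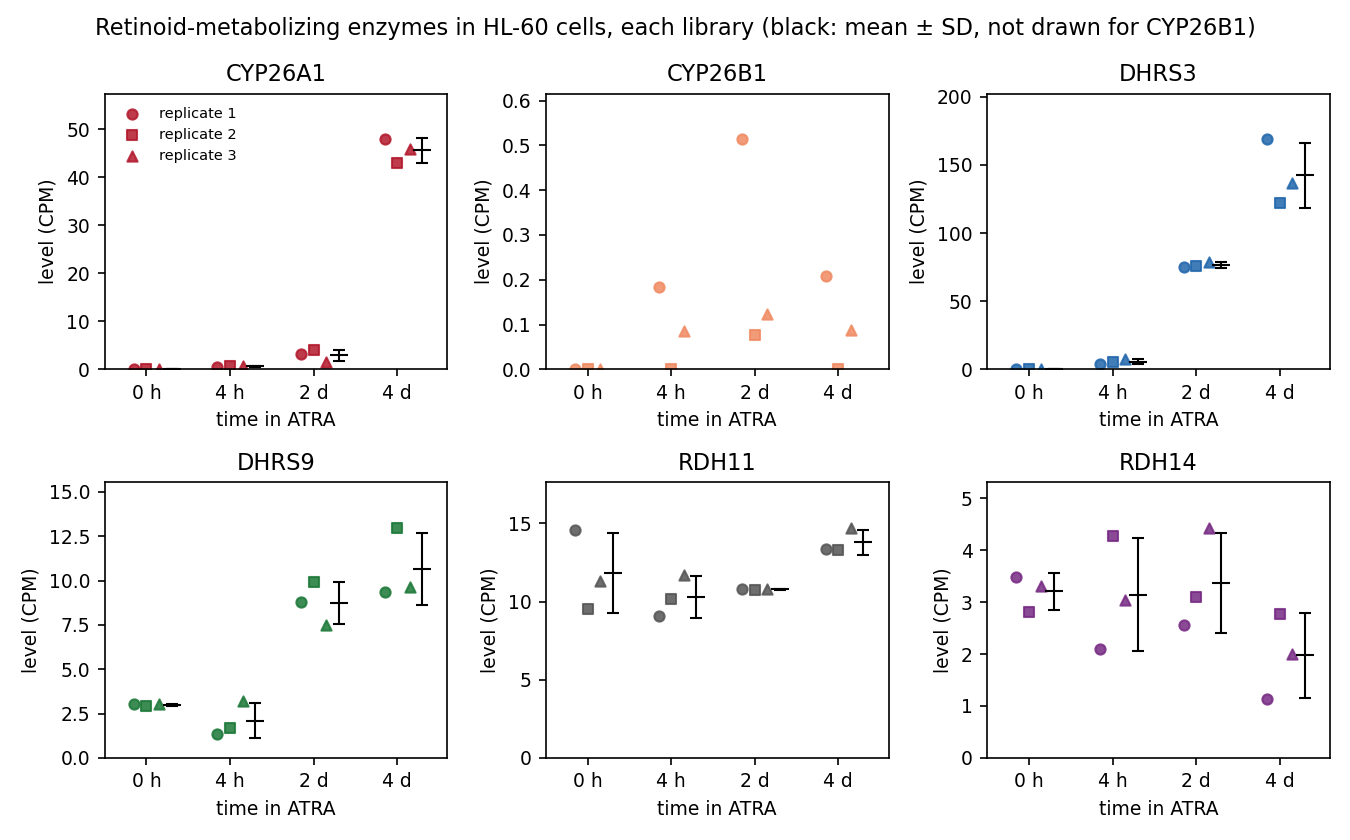
Level of each enzyme (CPM, linear axis starting at 0, a different range in each panel) in each of the 12 HL-60 libraries against time in ATRA (times are evenly spaced, not to scale). Symbols are replicates and black bars the mean ± SD, not drawn for CYP26B1; CYP26A1 stayed at or below 3.93 CPM until 2 d and stood at 42.9 to 47.9 CPM at 4 d, while DHRS3 was already at 74.8 to 78.7 CPM at 2 d.

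CYP26A1, the main retinoic acid hydroxylase, had 0 reads in all 3 libraries at 0 h, then 5, 9 and 8 reads at 4 h, 37, 52 and 13 at 2 d, and 461, 433 and 528 at 4 d. In CPM, scaled by edgeR's TMM factors, these were 0.457, 0.653 and 0.677 at 4 h, 3.16, 3.93 and 1.60 at 2 d, and 47.9, 42.9 and 45.9 at 4 d. No library of a later time overlapped with one of an earlier time. With a floor of 3 reads over the 0 h group, which is 0.0933 CPM, the level was at least 6.46-fold higher at 4 h than at 0 h, at least 33.1-fold higher at 2 d and at least 488-fold higher at 4 d. The 4 h libraries played no part in carrying CYP26A1 past the filter, and the 4 h difference passed the test (edgeR adjusted p = 0.00692). Floors and counting intervals cover counting error only. The second of the later steps was the larger one: the level was 3.93 ± 0.26 (SE, log2) higher at 4 d than at 2 d (edgeR adjusted p = 5.97e-06), and 2.29 ± 0.34 higher at 2 d than at 4 h. At 4 h 0 of the 3 libraries reached the filter's cutoff of 0.917 CPM, so the step from 4 h to 2 d is given without a p-value. The steps share the 2 d libraries, and their difference was not tested. Of the genes tested, 12 had a larger log2 increase at 4 d against 2 d. The 4 h library with reads in the most genes had the lowest CYP26A1 level of the 3, and without it the 4 h call held (edgeR adjusted p = 0.0189 without 4 h replicate 1).

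CYP26B1, its paralog with the same activity, had 0 reads in each 0 h library, 2, 0 and 1 at 4 h, 6, 1 and 1 at 2 d, and 2, 0 and 1 at 4 d. The highest level was 0.513 CPM, in 2 d replicate 1. It did not pass the low-count filter and was not tested. Of the 8 reads at 2 d, 6 came from replicate 1, and the other libraries held fewer than the 3-read floor, so no fold over 0 h is given. The 2 d to 4 h ratio was 2.95 (95% exact counting interval 0.707 to 17.2) and the 4 d to 2 d ratio 0.397 (0.0678 to 1.65), so neither direction was detectable at this depth. Of the 3 reads at 4 h, 2 came from 4 h replicate 1. CYP26C1, the third member of the subfamily, had 9 reads in all 12 libraries, 8 of them at 4 d.

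DHRS3, a short-chain reductase that turns retinaldehyde back to retinol, had 0 reads in all 3 libraries at 0 h, 44, 73 and 93 at 4 h, 874, 1000 and 640 at 2 d, and 1625, 1234 and 1571 at 4 d. The levels were 4.03, 5.29 and 7.88 CPM at 4 h, 74.8, 75.6 and 78.7 CPM at 2 d, and 168.7, 122.2 and 136.7 CPM at 4 d. The groups did not overlap at any step. The level was at least 61.6-fold higher at 4 h than at 0 h, at least 816-fold higher at 2 d and at least 1520-fold higher at 4 d. The 2 d or the 4 d libraries alone would have carried DHRS3 past the filter, and the 4 h difference passed the test (edgeR adjusted p = 2.19e-05). Here the earlier step was the larger: 3.73 ± 0.24 (SE, log2) at 2 d against 4 h (edgeR adjusted p = 9.28e-07), and 0.90 ± 0.21 at 4 d against 2 d (edgeR adjusted p = 0.00834). DHRS3 too was lowest at 4 h in replicate 1, and its 4 h call held without it (edgeR adjusted p = 3.44e-05).

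Of 9414 genes with no read at 0 h, 31 passed the filter for testing. Per kilobase of transcript, DHRS3 had the second highest mean level of those 31 at every treated time. PTGES, a prostaglandin E synthase, was above it at 4 h (3.33 ± 1.14 CPM per kilobase for DHRS3 and 3.90 for PTGES) and at 4 d (82.8 ± 13.8 for DHRS3 and 125.3 for PTGES), and MIR3131, a microRNA gene, at 2 d (44.3 ± 1.22 for DHRS3 and 50.8 for MIR3131). The place of MIR3131 rests on an annotated transcript of 63 bases, so its level per kilobase is uncertain. CYP26A1 was in place 5 at 4 h, 7 at 2 d and 5 at 4 d. Such genes passed the filter only through their treated libraries, so a rise was built into their selection and only the order is described.

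The balance of CYP26A1 and DHRS3 was followed by their reads alone. CYP26A1 made up 10.2%, 11.0% and 7.92% of the reads of CYP26A1 and DHRS3 together in the 3 libraries at 4 h, 4.06%, 4.94% and 1.991% at 2 d, and 22.1%, 25.97% and 25.15% at 4 d. The 3 groups of shares did not overlap: the lowest shares were those of 2 d and the highest those of 4 d. The mean share was 24.4% ± 2.04 at 4 d and 3.67% ± 1.52 at 2 d (SD, n = 3 each), a difference of 20.7 percentage points. It was 3.67% ± 1.52 at 2 d and 9.70% ± 1.59 at 4 h, a difference of -6.03 points. Each two-sided exact permutation test gave p = 0.1, the smallest that 3 libraries against 3 allow. This share was chosen after the levels were seen, and it does not depend on how libraries are scaled.

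**Figure D2:**
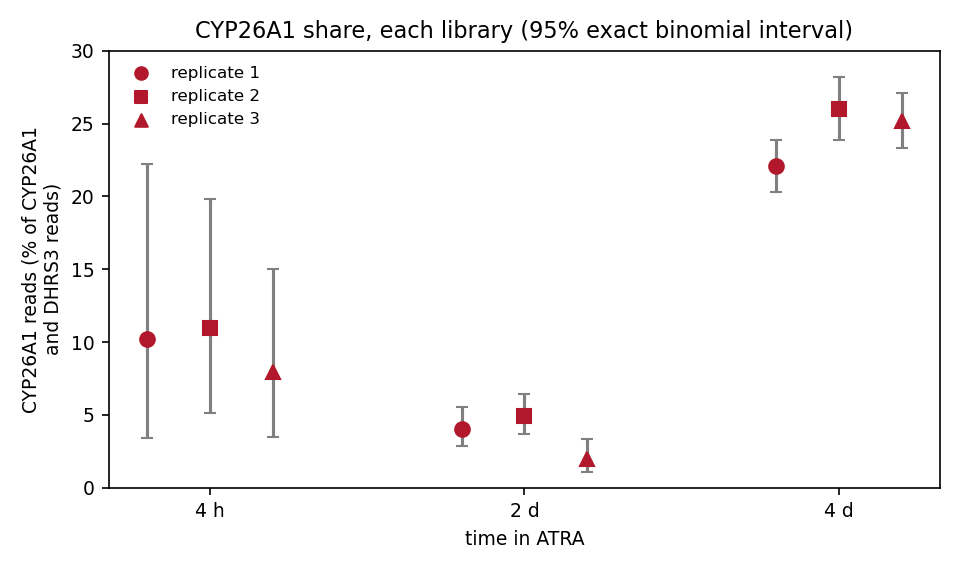
CYP26A1 reads as a percentage of the reads of CYP26A1 and DHRS3 together (y axis from 0) in each library at 4 h, 2 d and 4 d of ATRA, with exact (Clopper-Pearson) 95% binomial intervals that cover counting error only. The 4 d libraries sit at 22.1 to 25.97%, above the 4 h libraries at 7.92 to 11.0% and the 2 d libraries at 1.991 to 4.94%.

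DHRS9, a retinol dehydrogenase that also acts on steroids, was read at every time. It had 3.03, 2.91 and 3.02 CPM at 0 h, 1.37, 1.67 and 3.22 CPM at 4 h, 8.81, 9.90 and 7.502 CPM at 2 d, and 9.34, 12.97 and 9.66 CPM at 4 d, from 15 to 131 reads per library. All 2 d and 4 d libraries were above all 0 h and 4 h libraries. The level was 1.55 ± 0.28 (SE, log2) higher at 2 d than at 0 h (edgeR adjusted p = 0.000835), 1.83 ± 0.28 higher at 4 d than at 0 h (edgeR adjusted p = 8.32e-05) and 2.07 ± 0.28 higher at 2 d than at 4 h (edgeR adjusted p = 0.000114). The 4 d and 2 d libraries overlapped (0.28 ± 0.26, edgeR adjusted p = 0.452). At 4 h against 0 h 2 libraries lay below every 0 h library and 1 above them, and the difference did not pass the test (-0.52 ± 0.30, edgeR adjusted p = 0.284). It passed without 4 h replicate 3, the high one (-0.94, edgeR adjusted p = 0.0399 without 4 h replicate 3, between 0.0285 and 0.618 in all alternatives).

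RDH11, a retinaldehyde reductase of the endoplasmic reticulum, had 14.6, 9.54 and 11.3 CPM at 0 h, 9.06, 10.2 and 11.7 CPM at 4 h, 10.8, 10.7 and 10.8 CPM at 2 d, and 13.4, 13.3 and 14.7 CPM at 4 d. The 4 d libraries lay above the 2 d libraries and overlapped with those of 0 h. No difference passed the test: 0.22 ± 0.18 (SE, log2) at 4 d against 0 h (edgeR adjusted p = 0.302), 0.36 ± 0.18 at 4 d against 2 d (edgeR adjusted p = 0.164), -0.13 ± 0.18 at 2 d and -0.20 ± 0.18 at 4 h against 0 h (edgeR adjusted p = 0.596 and 0.489). With offsets for GC content and length, both differences of 4 d passed: 0.47 against 0 h (edgeR adjusted p = 0.0116, range over alternatives 0.0116 to 0.672) and 0.52 against 2 d (edgeR adjusted p = 0.0115, range over alternatives 0.0115 to 0.495).

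RDH14, a related reductase, had 3.49, 2.82 and 3.31 CPM at 0 h, 2.104, 4.28 and 3.05 CPM at 4 h, 2.57, 3.10 and 4.43 CPM at 2 d, and 1.14, 2.77 and 2.00 CPM at 4 d, from 11 to 59 reads per library. The 4 d libraries were all below the 0 h libraries, the nearest pair being 2.77 and 2.82 CPM. The difference did not pass the test (-0.69 ± 0.36, SE, log2, edgeR adjusted p = 0.113). Without 4 d replicate 2, the highest of the 4 d libraries, it did (-1.02, edgeR adjusted p = 0.044 without 4 d replicate 2, between 0.044 and 0.619 in all alternatives). At 4 d against 2 d it was -0.75 ± 0.36 (edgeR adjusted p = 0.144). RDH14 shares its span with a readthrough gene, NT5C1B-RDH14, which had 0 reads in the 12 libraries, and RDH11 lies within the RefSeq span of GPHN, which had 882. Reads in shared exons can be set aside as ambiguous, and the counting's strand setting is not given in the sources used here, so levels of these genes are uncertain.

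**Figure D3:**
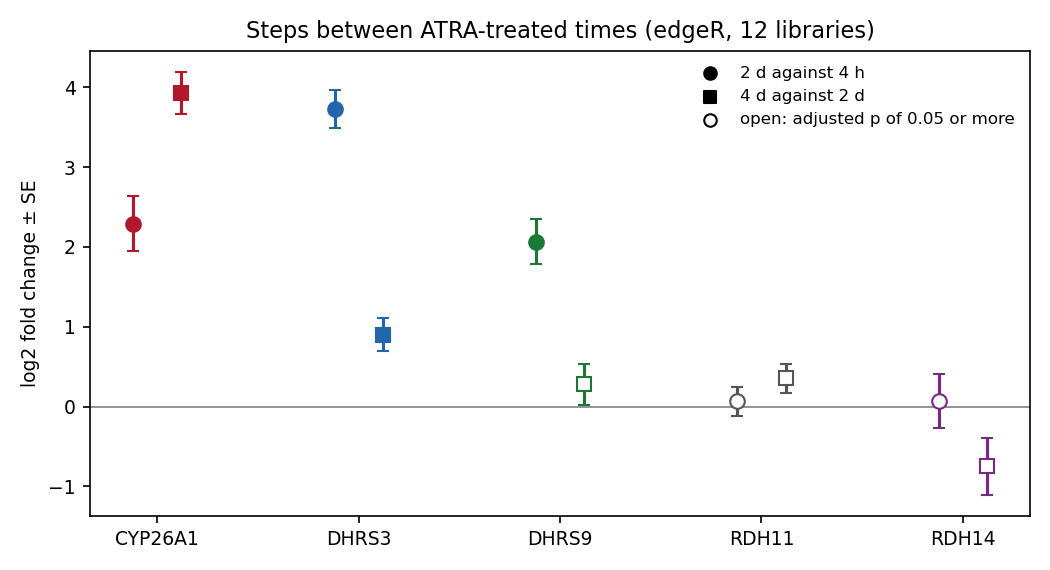
Log2 fold change ± SE of the 5 tested enzymes at 2 d against 4 h (circles) and at 4 d against 2 d (squares), from edgeR's fit to 12 libraries. Filled symbols passed an adjusted p under 0.05; CYP26A1 had its larger step at 4 d against 2 d (3.93), DHRS3 and DHRS9 at 2 d against 4 h (3.73 and 2.07), and the open symbols, which include DHRS9 at 4 d against 2 d, did not pass.

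Levels of different genes were set side by side as CPM per kilobase of the longest protein-coding GENCODE transcript. The order at 0 h was RDH11 (4.56 ± 0.99, SD, n = 3), RDH14 (2.02 ± 0.22) and DHRS9 (1.04 ± 0.024), with the other 3 at 0. At 4 h RDH11 (3.98 ± 0.51) and DHRS3 (3.33 ± 1.14) overlapped, as did DHRS3 and RDH14 (1.98 ± 0.69), and DHRS9 (0.729 ± 0.35), CYP26A1 (0.265 ± 0.054) and CYP26B1 (0.0189 ± 0.019) followed. At 2 d DHRS3 led with 44.3 ± 1.22, ahead of RDH11 (4.16 ± 0.018). DHRS9 (3.05 ± 0.42), RDH14 (2.12 ± 0.60) and CYP26A1 (1.29 ± 0.53) came next, each overlapping with its neighbour among these 3, and CYP26B1 was last (0.0501 ± 0.051). At 4 d the order was DHRS3 (82.8 ± 13.8), CYP26A1 (20.3 ± 1.12), RDH11 (5.33 ± 0.31), DHRS9 (3.72 ± 0.70), RDH14 (1.24 ± 0.51) and CYP26B1 (0.0208 ± 0.022), with no overlap between neighbours. CYP26A1 thus stood in place 5 at 4 h and 2 d and in place 2 at 4 d. The order was the same with median transcript lengths.

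Summed over the 6 genes, the level per kilobase was 7.63 ± 1.22 CPM at 0 h, 10.3 ± 2.30 CPM at 4 h, 55.0 ± 1.14 CPM at 2 d and 113.4 ± 13.8 CPM at 4 d (SD, n = 3 each). RDH11 held a mean of 59.5% of that sum before ATRA, 39.3% at 4 h, then 7.57% at 2 d and 4.75% at 4 d, while its own level stayed between 9.06 and 14.7 CPM. DHRS3 held 0% before ATRA, 31.8% at 4 h, then 80.6% at 2 d and 72.7% at 4 d. CYP26A1 held 2.59% of it at 4 h, then 2.35% at 2 d and 18.0% at 4 d.

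The genes most like each enzyme that differed over time were taken by Pearson's r of log2 (CPM + 0.5) over the 12 libraries, among 8745 genes with a mean of 10 CPM or more. For CYP26A1 they were G0S2, an inhibitor of adipose triglyceride lipase (r = 0.988), FCMR, the IgM Fc receptor (0.987), and LAMB3, a laminin chain (0.987). G0S2 had 1.08 CPM at 0 h, 1.73 CPM at 4 h, 6.04 CPM at 2 d and 59.3 CPM at 4 d. In CPM this rise came mainly after 2 d, like that of CYP26A1. As a fold, CYP26A1 was already at least 33.1-fold over the 0 h floor at 2 d. For DHRS3 they were SOCS3, an inhibitor of cytokine signalling (0.995), TTLL4, a tubulin polyglutamylase (0.994), and ICAM1, an adhesion molecule (0.993). SOCS3 had 1.43 CPM at 0 h, 10.9 CPM at 4 h, 97.6 CPM at 2 d and 114.6 CPM at 4 d. For DHRS9 they were ZNF747, a zinc finger protein (0.992), ATP6V0D1, a subunit of the proton pump of lysosomes (0.983), and ORAI3, a calcium channel (0.98). ZNF747 had 24.3 CPM at 0 h, 21.1 CPM at 4 h, 35.3 CPM at 2 d and 37.5 CPM at 4 d. These values describe 12 libraries that fall into 4 times, and many genes share each shape: r was above 0.95 for 83, 90 and 77 genes for CYP26A1, DHRS3 and DHRS9. Between enzymes r was 0.862 for CYP26A1 and DHRS3, 0.804 for CYP26A1 and DHRS9 and 0.805 for DHRS3 and DHRS9.

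**Figure D4:**
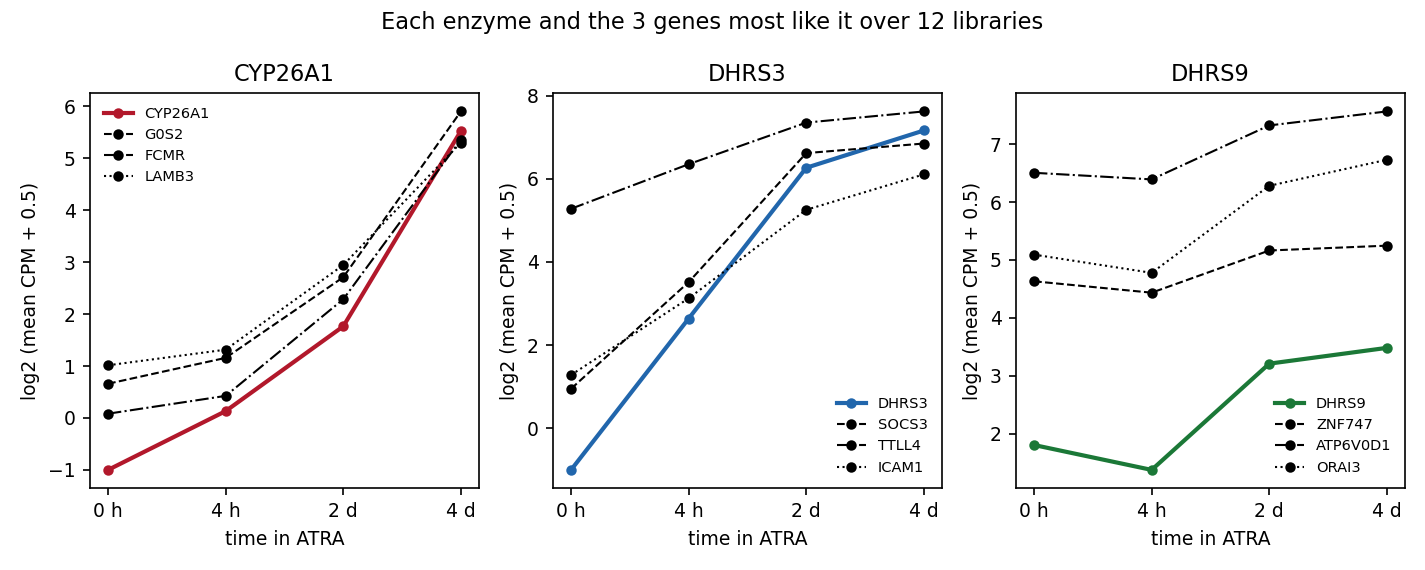
Level as log2 (mean CPM + 0.5) over the 4 times (evenly spaced, not to scale) for CYP26A1, DHRS3 and DHRS9 (thick coloured lines) and the 3 genes with the highest Pearson r to each (thin black lines). On this scale, with 0.5 CPM added, CYP26A1 and its 3 genes climb most between 2 d and 4 d. DHRS3 and its genes climb more up to 2 d than between 2 d and 4 d.

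Other genes of retinoid handling changed in both directions, as did the tested genes as a whole. Of a list of 63 other symbols, 62 stood in the files and 30 were tested, of which 25 differed over the 4 times (63.2% of all genes tested did). At 4 h against 0 h 1 rose and 2 fell (2.00% and 4.23% of all genes), at 2 d 5 rose and 8 fell (16.9% and 18.7%), and at 4 d 10 rose and 13 fell (28.1% and 29.7%), with median log2 fold changes of 0.087, -0.27 and -0.24, against 0.0035, -0.02 and 0.00015 over all genes tested. At 2 d against 4 h 7 rose and 10 fell (median -0.21, with 16.5% and 18.0% of all genes), and at 4 d against 2 d 6 rose and 4 fell (median 0.20, with 13.1% and 13.5%). The list was drawn up with earlier results known. Some of its genes, ALDH1A2 and RARB among them, passed the low-count filter through treated libraries alone, so their counted rises were partly built into their selection.

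Among 9 tested retinol dehydrogenases and retinaldehyde reductases, 7 fell and 1, RDH5, rose at 4 d against 0 h, where 29.7% of all genes tested fell and 28.1% rose. DHRS4L2 averaged 6.15 ± 1.27 CPM at 4 d and 22.8 ± 2.83 CPM at 0 h (-1.89 ± 0.20, SE, log2, edgeR adjusted p = 2.87e-06), but its near-identical paralog DHRS4 leaves the split of reads between them uncertain. It was already lower at 2 d than at 0 h (-1.08 ± 0.19, edgeR adjusted p = 0.000642) and fell further at 4 d against 2 d (-0.81 ± 0.20, edgeR adjusted p = 0.0088). DHRS2, a mitochondrial dicarbonyl reductase, averaged 1.77 ± 0.33 CPM at 4 h and 4.82 ± 1.15 CPM at 0 h (-1.45 ± 0.30, edgeR adjusted p = 0.014). That 4 h call ended without single libraries (edgeR adjusted p over 0.05 without 0 h replicate 2, 4 h replicate 1 or 4 h replicate 2, range over alternatives 0.0011 to 0.0911), and its call at 2 d did not (0.887 ± 0.11 CPM, -2.44 ± 0.34, edgeR adjusted p = 0.00011). The calls of RDH10, the retinol dehydrogenase of embryos, and RDH13 at 4 d were among those lost under other settings, in 15 and 7 of 23 alternatives.

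Of the 2 tested retinaldehyde dehydrogenases, which make retinoic acid, ALDH1A2 rose and ALDH1A3 fell at 4 d. ALDH1A2 had 1 read over the 0 h group, 2 over the 2 d group and 94 over the 4 d group. It passed the low-count filter through its 4 d libraries alone, so a rise was built into its selection and no p-value is given. The ratio of 4 d to 2 d was 49.8 (95% exact counting interval 13.4 to 417) and that of 4 d to 0 h 96.9 (17 to 3870). ALDH1A3 averaged 1.40 ± 0.47 CPM at 0 h, 2.20 ± 1.11 CPM at 4 h, 1.04 ± 0.17 CPM at 2 d and 0.248 ± 0.22 CPM at 4 d. It was not called at 4 h against 0 h (edgeR adjusted p = 0.393), at 2 d against 0 h (0.56) or at 2 d against 4 h (0.115). ALDH1A1 was too low to test, with 62 reads over 12 libraries.

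POR, the reductase that passes electrons to CYP26A1 and other microsomal P450s, averaged 52.6 ± 13.2 CPM at 0 h, 101.9 ± 33.1 CPM at 4 h, 526.3 ± 32.1 CPM at 2 d and 866.3 ± 164.8 CPM at 4 d (SD, n = 3 each). It was 3.32 ± 0.27 (SE, log2) higher at 2 d than at 0 h (edgeR adjusted p = 1.08e-06), 4.04 ± 0.27 higher at 4 d than at 0 h (edgeR adjusted p = 7.16e-08) and 2.37 ± 0.26 higher at 2 d than at 4 h (edgeR adjusted p = 1.58e-05). Its call at 4 h against 0 h (0.95 ± 0.25, edgeR adjusted p = 0.0373) ended in 10 of 23 alternatives (range over alternatives 1.85e-05 to 0.118), among them the fits without 0 h replicates 1 or 3, 4 h replicates 2 or 3, any 2 d replicate or 4 d replicate 3.

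Of the 3 tested carriers of retinoids, RBP5 and RBP7 rose and FABP5 fell at 4 d against 0 h. FABP5, a fatty acid binding protein that also carries retinoic acid, averaged 91.9 ± 14.1 CPM at 0 h, 111.3 ± 9.36 CPM at 4 h, 16.2 ± 4.14 CPM at 2 d and 4.81 ± 1.13 CPM at 4 d. It fell at 2 d against 0 h (-2.50 ± 0.21, SE, log2, edgeR adjusted p = 1.84e-06), at 2 d against 4 h (-2.78 ± 0.21, edgeR adjusted p = 1.06e-06), at 4 d against 0 h (-4.25 ± 0.24, edgeR adjusted p = 1.37e-08) and at 4 d against 2 d (-1.74 ± 0.23, edgeR adjusted p = 0.000156). FABP5 has processed pseudogenes that can share its reads. RBP7, a cellular retinol binding protein, averaged 0.927 ± 0.22 CPM at 0 h, 0.192 ± 0.097 CPM at 4 h, 1.26 ± 0.24 CPM at 2 d and 11.1 ± 4.79 CPM at 4 d. It rose at 4 d against 0 h (3.56 ± 0.36), at 4 d against 2 d (3.12 ± 0.35, edgeR adjusted p = 5.5e-05) and at 2 d against 4 h (2.65 ± 0.52). Neither the 0 h libraries (7 to 12 reads each) nor the 4 h libraries (1 to 3) alone carried RBP7 past the low-count filter. Its rises over these 2 times were thus partly built into its selection and are given without p-values. RBP7 fell at 4 h against 0 h, with 7 reads over the 4 h group and 30 over the 0 h group (-2.21 ± 0.55, edgeR adjusted p = 0.0303). That call ended in 6 of 22 alternatives, limma-voom and the fits without 0 h replicates 1 or 2 or any 4 h replicate (range over alternatives 0.00169 to 0.116).

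Of 5 tested genes that make or cleave retinyl esters, CES1, a carboxylesterase, averaged 15.8 ± 5.73 CPM at 0 h, 14.2 ± 2.00 CPM at 2 d and 1.77 ± 1.09 CPM at 4 d. It fell by 3.12 ± 0.41 on the log2 scale at 4 d against 0 h (edgeR adjusted p = 2.32e-05) and by 2.98 ± 0.41 at 4 d against 2 d (edgeR adjusted p = 0.000225). LIPE, hormone-sensitive lipase, averaged 12.3 ± 0.60 CPM at 2 d and 5.17 ± 1.26 CPM at 4 h (1.24 ± 0.22, edgeR adjusted p = 0.000802). PNPLA2, a triglyceride lipase, had the highest mean CPM of this role and was not called at 4 h (201.5 ± 97.3 CPM, against 390.4 ± 268.9 CPM at 0 h, edgeR adjusted p = 0.219). RETSAT, retinol saturase, averaged 35.4 ± 6.45 CPM at 4 d and 23.7 ± 1.34 CPM at 2 d (0.58 ± 0.16, edgeR adjusted p = 0.0173, range over alternatives 4.19e-05 to 0.0796, over 0.05 without 2 d replicate 3, 4 d replicate 2 or 4 d replicate 3). Against 0 h (27.5 ± 2.49 CPM) it was not called at 4 h, 2 d or 4 d (edgeR adjusted p = 0.753, 0.325 and 0.0627), nor at 2 d against 4 h (25.9 ± 2.57 CPM at 4 h, edgeR adjusted p = 0.577). SCARB1, a receptor that takes up carotenoids, stood at 129.4 ± 26.6 CPM at 4 h and 125.2 ± 20.4 CPM at 0 h (edgeR adjusted p = 0.892). At 2 d it stood at 83 ± 8.51 CPM, lower than at 0 h (-0.59 ± 0.20, edgeR adjusted p = 0.033) and than at 4 h (-0.64 ± 0.20, edgeR adjusted p = 0.023), and at 4 d it was higher again (127.2 ± 25.8 CPM, 0.62 ± 0.20 against 2 d, edgeR adjusted p = 0.0353). Each of these 3 calls ended without any single 2 d replicate and with the replicate block (range over alternatives 3.17e-05 to 0.129), and some without 0 h replicates 2 or 3, 4 h replicates 2 or 3, or 4 d replicates 1 or 3.

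Of the 5 tested receptors, RARB, the retinoic acid receptor whose own gene retinoic acid induces, averaged 0.341 ± 0.042 CPM at 0 h, 0.874 ± 0.36 CPM at 4 h, 3.51 ± 0.54 CPM at 2 d and 3.13 ± 0.28 CPM at 4 d. RARB passed the low-count filter through treated libraries alone, so its rise over 0 h is given without p-values. It was 3.33 ± 0.36 (SE, log2) higher at 2 d than at 0 h and 3.15 ± 0.37 higher at 4 d. At 2 d against 4 h RARB rose by 2.02 ± 0.31. The 4 h libraries, with 8 to 14 reads each, did not carry it past the filter alone, so no p-value is given here either. RXRA, the partner of the retinoic acid receptors, averaged 312.9 ± 54.3 CPM at 0 h, 347.5 ± 54.9 CPM at 4 h and 146.4 ± 18.7 CPM at 2 d. It fell at 2 d against 0 h (-1.09 ± 0.18, edgeR adjusted p = 0.000412) and against 4 h (-1.25 ± 0.18, edgeR adjusted p = 0.000151). RXRA was not called at 4 h against 0 h (edgeR adjusted p = 0.59), and at 4 d it stood at 153.8 ± 5.03 CPM (edgeR adjusted p = 0.8 against 2 d).

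**Figure D5:**
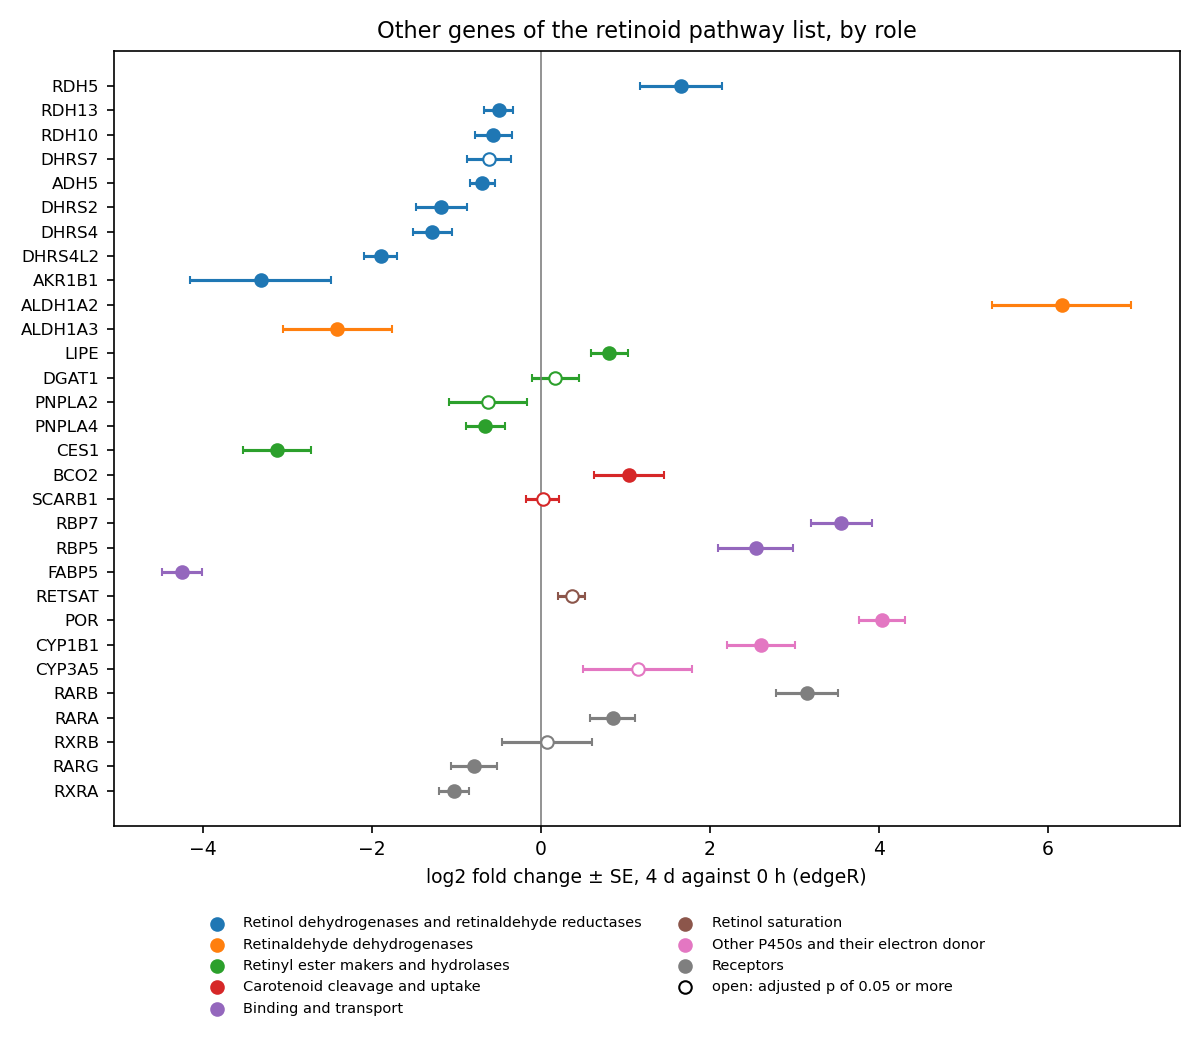
Log2 fold change ± SE at 4 d against 0 h for the 30 tested genes of the list of other retinoid genes, grouped and coloured by role, from edgeR's fit. Filled symbols passed an adjusted p under 0.05 (10 to the right of 0, 13 to the left); the value of ALDH1A2 rests on 1 read at 0 h and that of AKR1B1 on 3 reads at 4 d, so their size depends on the fit's prior count.

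The 32 list genes in the files that were not tested had 0 to 71 reads over the 12 libraries. LRAT and RPE65, which make and isomerize retinyl esters, had 1 and 2 reads in all, and STRA6, a retinol transporter, had 3, each of them in 4 h replicate 1. CRABP2, which carries retinoic acid to its receptors, had the most, 71 reads, 22 of them in 4 d replicate 1.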

How the data were processed

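RNA-seq read counts per gene in 12 HL-60 libraries, as deposited, were used. Per the submitters' processing notes, the authors trimmed reads with Trim Galore 0.6.7, used HISAT2 2.1.0 and HTSeq 1.99.2, and named hg19; FastQC is listed too. No source used here gives the strand setting or the annotation. The deposited counts are whole numbers for 26364 genes and 5 classes of unassigned reads (13.97 to 28.15% in no gene, 2.74 to 3.9% ambiguous), which were left out of library sizes.

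The counts were fitted with edgeR 4.0.16 in R 4.3.3 (TMM factors, filterByExpr, quasi-likelihood test, 1 mean per time, Benjamini-Hochberg adjustment over 12671 genes, threshold 0.05), on all 12 libraries. The libraries held 7866757 to 13658177 gene reads, and a group's floor of 3 reads is 0.0821 to 0.0961 CPM. No pair of libraries of 1 time agreed within sampling noise (chi-square per degree of freedom 3.47 to 98 over genes with 20 reads or more). The highest values were those of pairs with 0 h replicate 2 (98 and 77.8), 4 d replicate 1 (54.7 and 42.8) and 4 h replicate 3 (47.8 and 30.8). Lengths and GC content came from GENCODE (longest protein-coding transcript, or the longest of all where none is coding, matched by symbol, 90.2% of genes). Promoter windows came from RefSeq on GRCh38.p14, which held all 6 genes. The scripts were tested on simulated data.

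The genes and lists were chosen with earlier results of these data known. Of the list of other retinoid genes, the text names in each comparison at most 6 called genes in order of adjusted p and, in a role with none called, the gene with the highest mean. RDH5, RDH10, RDH13, DHRS2 at 4 d, SCARB1 beyond 4 h, PTGES, MIR3131 and the untested genes were named after their values were seen. Alternatives were RLE factors, library totals, DESeq2 1.42.0, limma-voom 3.58.1, no filter or a mean of 1 CPM, fits to the 6 libraries of a comparison, the replicate number as a block, leaving out single or 3 libraries, GC and length offsets, an adjusted p under 0.01 and a fold of at least 2.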

Additional observations from a re-analysis of the deposited data

How the results depend on the processing

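For the enzymes, 25 values over up to 23 alternative fits gave 574 results, of which 553 kept direction and side of the threshold, 5 newly passed it (those of DHRS9, RDH11 and RDH14 given above) and 16 changed sign, all 16 in 5 small differences of RDH11 and RDH14 among 0 h, 4 h and 2 d (-0.17 to 0.18 on the log2 scale) that passed in neither fit. In the fit to the 6 libraries of 4 h and 0 h, CYP26A1 was dropped by the low-count filter, leaving 1 enzyme called in place of 2, and a required fold of 2 left 1 of 2 at 4 d against 2 d. With library totals alone the level of DHRS3 against the 0 h floor was 856-fold at 2 d and 1600-fold at 4 d. The counts over all genes depended more on the processing. For 4 h against 0 h (790), they were 1341 with DESeq2, 1960 with no filter, 261 with 6 libraries, 1430 with GC and length offsets, 241 at an adjusted p under 0.01, 495 with a fold of 2, 245 to 1519 without single libraries and 3191 without 3 libraries that include 4 h replicate 3. That last fit gave 6724 at 2 d against 4 h (4377) and 5549 at 4 d against 2 d (3374), where single libraries left out gave 2130 to 4215. An adjusted p under 0.01 and a fold of 2 gave 2705 and 2122 at 2 d against 0 h (4512), 2711 and 2140 at 2 d against 4 h, and 1748 and 1470 at 4 d against 2 d; the fold alone gave 4460 at 4 d against 0 h (7330). For the list of other retinoid genes, 154 of 1507 results no longer passed, over 26 of 66 calls, and 0 reversed. Its count at 4 h (3) was 1 with 6 libraries, 5 without 3 libraries that include 4 h replicate 3, 0 at an adjusted p under 0.01 and 0 to 3 without single libraries. At 2 d against 4 h (17) it was 8 at an adjusted p under 0.01, 9 with a fold of 2 and 10 to 19 without single libraries, and at 4 d against 2 d (10) 5, 6 and 6 to 13. Without single libraries, 1 to 3 of the 3 genes most like CYP26A1 and of those most like DHRS9 stayed. Deviations from the mean of their time had r over 0.1 in 6 of 18 pairs of same-numbered libraries (-0.813 to 0.677). Differently numbered libraries were not compared, so whether the numbers pair libraries was not tested. With the replicate number as a block, 381 genes were called at 4 h against 0 h and the enzymes' calls were 2, 3, 3, 3 and 2 in the 5 comparisons, as without it. Where no cause is named it was not tested. Depth limits CYP26B1, with 14 reads over 12 libraries.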
